A study of Mus musculus with 8 samples.

Results

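The heat shock and endoplasmic reticulum (ER) stress chaperones examined here were 43 genes, taken by gene symbol from a list of cytosolic heat shock proteins, mitochondrial and ER chaperones and components of the unfolded protein response. All 43 symbols were found, each on 1 gene ID, among 52636 gene IDs measured. Polyadenylated RNA had been sequenced from 8 mixed co-cultures of mouse splenocytes and colon cancer cells. In 4 co-cultures the cancer cells were trogocytic (called T1 to T4, after the replicate number), and in the other 4 they were non-trogocytic (N1 to N4). Trogocytosis is the transfer of membrane and surface proteins from one cell to another during contact. The labels give C57BL/6 as the strain for both groups and describe the same handling for both. Organoids of colon cancer carrying the tumor reporter tdTomato were injected into the spleen, and the cells that had metastasised to the liver were sorted by tdTomato and by CD4, a marker of helper T cells. The sorted cancer cells were then kept for 5 days with splenocytes at a ratio of 1:50, the splenocytes coming from syngeneic Actin-GFP reporter mice. The age of the mice and the driver mutations of the organoids are not stated in the sources used here, nor is it stated whether replicates came from separate animals, so the p-values below measure the spread between libraries, which may be technical.

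Cells answer damaged or unfolded protein in the cytosol through the transcription factor HSF1, which binds heat shock elements and drives inducible chaperones such as HSPA1A, HSPA1B and HSPB1. In the ER, the chaperone BiP (Hspa5) and the sensors IRE1 (Ern1), PERK and ATF6 form the unfolded protein response, whose effectors XBP1, ATF4 and cleaved ATF6 raise ER chaperones, folding enzymes and components that return misfolded protein to the cytosol for degradation. Secretory cells such as plasma cells and intestinal epithelium run parts of this program without added stress, and tumor cells often carry high levels of constitutive chaperones.

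Sequences upstream of the genes are shown first because the same short element recurred in the ER chaperones described below. A promoter window from RefSeq (build GRCm38.p6) was available for 35 of the 43 genes, and the 250 bases upstream of the RefSeq start were searched on both strands. Hspa8, Hsp90aa1, Hsp90ab1, Hsf1, Hspa9, Hyou1, Manf and Atf6 had no window and were not searched. The ER stress response element, CCAAT and CCACG with 9 bases of any kind between them, is the element through which NF-Y and cleaved ATF6 act on ER chaperone genes. It was found upstream of 7 of the 35 genes, Hspa5, Hsp90b1, Calr, Canx, Pdia6, Dnajc3 and Creld2. All 7 belong to the ER folding group, of which 13 of 15 genes had a window. The element was present in 0.113% of all 32851 promoter windows and upstream of 0.130% of all genes with a window. The sites are printed with the invariant CCAAT and CCACG in capitals, read on the strand that carries the element:
Hspa5, chr2:34772025-34772043 (+), 65 to 47 bases upstream: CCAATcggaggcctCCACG
Hsp90b1, chr10:86705638-86705656 (−), 212 to 194 bases upstream: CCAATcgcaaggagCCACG
Hsp90b1, chr10:86705533-86705551 (+), 107 to 89 bases upstream, opposite to the gene: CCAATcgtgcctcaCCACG
Canx, chr11:50325800-50325818 (−), 145 to 127 bases upstream: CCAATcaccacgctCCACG
Calr, chr8:84847075-84847093 (+), 162 to 144 bases upstream, opposite to the gene: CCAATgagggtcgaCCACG
Pdia6, chr12:17266491-17266509 (+), 98 to 80 bases upstream: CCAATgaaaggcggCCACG
Dnajc3, chr14:118937827-118937845 (+), 105 to 87 bases upstream: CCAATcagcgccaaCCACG
Creld2, chr15:88819520-88819538 (−), 126 to 108 bases upstream, opposite to the gene: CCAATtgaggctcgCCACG

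The heat shock element was searched as GAA, TTC and GAA with 2 bases of any kind between each. Among the 35 genes with a window, it was found upstream of Hspd1 and Hspe1 only. It was in 0.466% of all promoter windows and upstream of 0.514% of all genes with a window. A match needed every unit exact, so genes without a match, such as Hspa1a, Hspa1b and Hspb1, can still carry a looser site. Hspd1 and Hspe1, neighbours on chromosome 1, are transcribed away from each other. Their gene models overlap by 112 bases in the deposited coordinates, and the match is 1 shared site. It is printed with its alternating TTC and GAA units in capitals:
Hspe1, chr1:55088053-55088082 (+), 95 to 66 bases upstream: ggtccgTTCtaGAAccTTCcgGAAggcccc
The XBP1 and ATF6 element TGACGTGG was found upstream of 0 of the 35 genes, against 0.603% of all genes with a window (0.563% of windows). The composite element of CHOP and ATF4, TGATGNAA, was upstream of Herpud1 and Asns. These are 5.71% of the 35 genes, against 3.91% of all genes with a window (3.45% of windows). A match describes letters in a window and not binding, and no library measured binding.

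The genes spanned a wide range of abundance, given as TPM, a transcript abundance that corrects for gene length and is scaled to the same total in every library. Averaged over the 8 libraries, 4 genes lay at 1000 TPM or above, 14 between 100 and 1000 TPM, 15 between 10 and 100 TPM, 6 between 1 and 10 TPM and 4 below 1 TPM. The 8 most abundant genes held 77.7% of the TPM of all 43. Together the 43 genes made up 1.62% to 1.90% of all TPM in the trogocytic co-cultures and 1.43% to 1.85% in the non-trogocytic co-cultures, ranges that overlapped. In RNA from whole co-cultures, fewer cells of a type and less RNA per cell cannot be told apart. Summed coverage came to 1.39 to 1.84 Gb a library, or at least about 6.93 to 9.21 M pairs of reads when each is counted at its whole length, and on that count 1 TPM of a 2-kb transcript stood for about 5.83 to 8.45 read pairs.

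**Figure D1:**
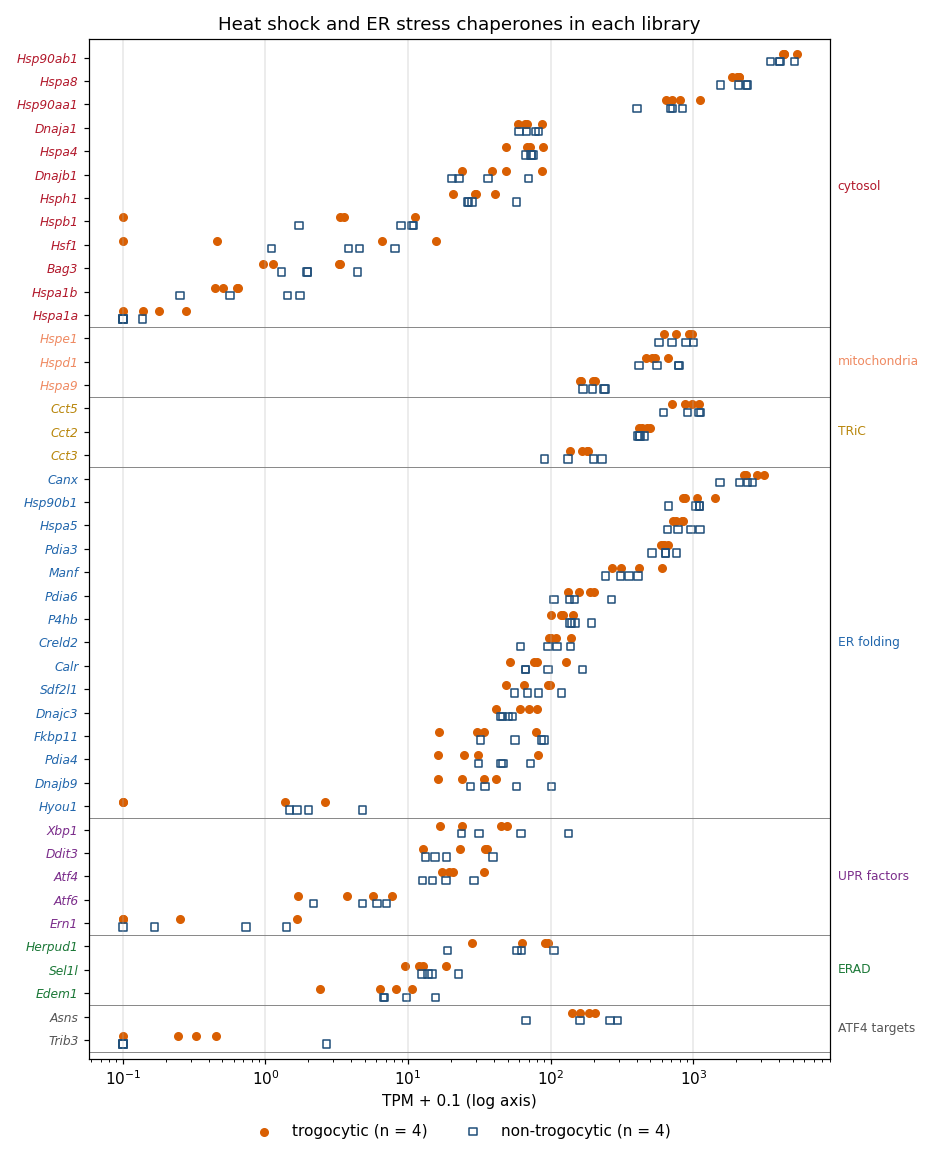
Level of each of the 43 genes in every library, on a log axis of TPM + 0.1, with trogocytic co-cultures as filled circles and non-trogocytic co-cultures as open squares; genes are grouped by role. The groups overlap for every gene, and Hspa1a, Hspa1b, Ern1 and Trib3 lie below 1 TPM on average while Hsp90ab1 has 3468 TPM or more in all 8 libraries.

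No chaperone or stress gene differed between the groups past the threshold. A gene was tested where it reached 1 TPM in at least 4 libraries, which 39 of the 43 genes did, and limma's moderated test with Benjamini-Hochberg adjustment over all 11433 tested genes called 0 of the 39 at an adjusted p below 0.05. Across all tested genes it called 0.0525%. At an unadjusted p below 0.05 it called 0 of the 39, against 4.59% of all tested genes, and 0 of the 39 had groups that did not overlap, against 2.68% of all. The adjusted p of each of the 39 was 0.9998. The log2 fold change, trogocytic minus non-trogocytic on the log2(TPM + 1) scale, was below 0 for 23 and above 0 for 16 of the 39. The 23 are 59.0%, where 49.3% of all tested genes lay below 0. The median was −0.05 for the 39 genes and 0.01 for all tested genes. Counts at an unadjusted p below 0.05 were not the same in every fit: leaving out T2 gave Hyou1 and Fkbp11, leaving out T4 gave Pdia4, leaving out N1 gave Fkbp11 and leaving out N4 gave Dnajb9, with 0 genes past the adjusted threshold in each.

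Intervals close to 0 were found mainly for abundant genes. The 95% interval of the fold change lay within a log2 value of 1 on either side of 0 for 24 of the 39 genes (61.5%), against 26.0% of all tested genes. It did so for 18 of 18 genes with a mean of at least 100 TPM, for 6 of 14 genes between 20 and 100 TPM and for 0 of 7 genes between 1 and 20 TPM. Differences above 0.5 on the log2 scale, in either direction, were estimated for 7 of the 39 genes (17.9%), against 30.2% of all tested genes.

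**Figure D2:**
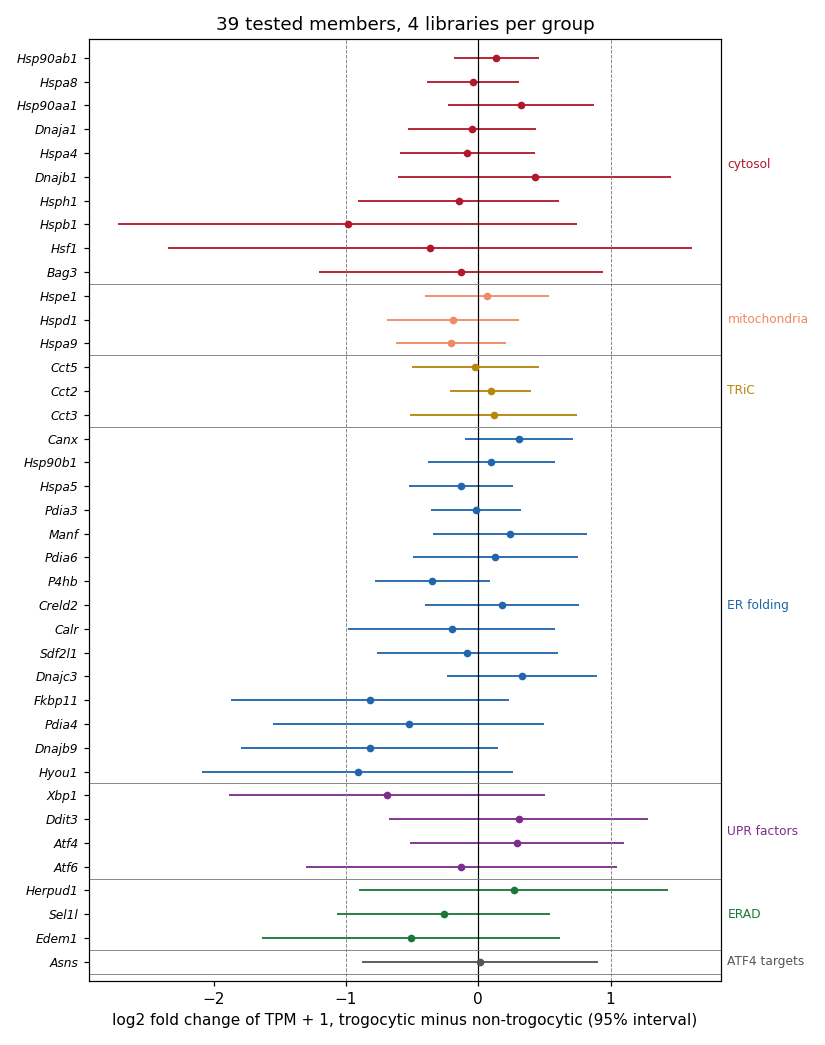
Log2 fold change of TPM + 1, trogocytic minus non-trogocytic, with its 95% interval from limma for the 39 tested genes, by role; 4 libraries per group. Every interval includes 0, and those of Hspb1, Hsf1 and Hyou1, each listed at 0 in at least 1 library, are among the widest.

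In the cytosol, the constitutive HSP90 and HSC70 genes dominated. Hsp90ab1 (ENSMUSG00000023944.14, chromosome 17, 45567775 to 45573271), the constitutive HSP90, had 4307, 4325, 5286 and 4225 TPM in trogocytic T1 to T4, against 3468, 4042, 4016 and 5090.3 TPM in non-trogocytic N1 to N4. It was the most abundant of the 43 genes, with T3 and N4 high and N1 low, and its fold change was 0.13 ± 0.15 (SE) with a 95% interval of −0.19 to 0.46. Hspa8 (ENSMUSG00000015656.17, chromosome 9, 40800984 to 40810087), the constitutive HSC70 that folds new proteins and drives clathrin uncoating, had 1878, 2014, 2072 and 2074 TPM in T1 to T4, against 1553, 2359.8, 2069 and 2400.2 TPM in N1 to N4. The trogocytic values lay inside the wider non-trogocytic range, and the fold change was −0.04 ± 0.16 (−0.39 to 0.30). Hsp90aa1, the stress-inducible HSP90, had 641, 809.9, 1110.0 and 709 TPM in T1 to T4, against 692, 402, 840.3 and 716 TPM in N1 to N4. T3 was the highest and N2 the lowest, and the means were 818 ± 207 TPM in trogocytic and 663 ± 185 TPM in non-trogocytic co-cultures (SD, n = 4 each; fold change 0.32 ± 0.25, limma unadjusted p = 0.2232). Of the annotated longest transcript of Hspa8, 60.5% of 100-base stretches also occur in other genes, and of Hsp90aa1 47.5%, so the division of reads between copies is uncertain; among these other genes, Gm26825 had 27.3 to 61.0 TPM and Gm12346, which shares stretches with Hsp90aa1, 1.92 to 10.2 TPM.

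The inducible HSP70 genes were near the detection limit. Hspa1b (ENSMUSG00000090877.3, chromosome 17, 34956436 to 34959238) had 0.528, 0.341, 0.407 and 0.544 TPM in T1 to T4, against 0.152, 0.463, 1.32 and 1.65 TPM in N1 to N4. Hspa1a, its neighbour across 9951 bases, had 0, 0.0379, 0.0799 and 0.177 TPM in T1 to T4, against 0, 0, 0.0379 and 0 TPM in N1 to N4. These values rest on about 1.8 to 15.8 read pairs per library for Hspa1b and at most 1.66 for Hspa1a, neither gene reached the filter, and Hspa1a was listed at 0 in 4 libraries. Because 47.1% of the 100-base stretches of Hspa1a also occur in Hspa1b, their sum is also given. It was 0.528, 0.378, 0.486 and 0.721 TPM in T1 to T4, against 0.152, 0.463, 1.36 and 1.65 TPM in N1 to N4, with N3 and N4 above every trogocytic library and N1 below. In each of the 8 libraries the HSC70 gene Hspa8 was at 1553 TPM or above while this sum was at most 1.65 TPM.

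Hspb1, the small heat shock protein HSP27, was likewise low, with 0, 11.0, 3.25 and 3.44 TPM in T1 to T4, against 1.62, 10.8, 8.82 and 10.6 TPM in N1 to N4. It was listed at 0 in T1, and 82.6% of its 100-base stretches occur in other genes, with 42.7% in the pseudogene Hsp25-ps1, at or below 0.239 TPM in every library, and 39.8% in Gm9817, listed at 0 in all 8. Hsf1, the regulator of the heat shock response, had 6.42, 0, 0.360 and 15.7 TPM in T1 to T4, against 3.71, 8.01, 4.46 and 1.00 TPM in N1 to N4. The extremes were both trogocytic, T4 with about 155.5 read pairs and T2 with 0. The HSP40 co-chaperone Dnajb1, which delivers clients to HSP70, had 48.8, 38.8, 23.9 and 86.1 TPM in T1 to T4, against 36.1, 69.9, 22.6 and 20.3 TPM in N1 to N4. Its fold change of 0.43 ± 0.47 was the highest of the 39 and its groups overlapped. The remaining cytosolic genes, the HSP110 members Hspa4 and Hsph1, the HSP40 Dnaja1 and the HSP70 cofactor Bag3, lay between 0.863 and 88.8 TPM over all libraries, with fold changes from −0.15 to −0.05. Dnaja1 overlaps Smu1 on the opposite strand, which averaged 235 TPM. Over the 12 cytosolic genes, 10 were tested, 3 had fold changes above 0 and 7 below, and their median was −0.07. Their summed level was 7011 to 8683 TPM in trogocytic and 5928 to 8453 TPM in non-trogocytic co-cultures.

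Mitochondrial chaperones were abundant in every library. Hspd1 (HSP60, ENSMUSG00000025980.14, chromosome 1, 55077835 to 55088243) had 462, 664, 537 and 509 TPM in T1 to T4, against 416, 785, 553 and 791 TPM in N1 to N4. Hspe1 (HSP10, ENSMUSG00000073676.4, chromosome 1, 55088132 to 55091307), the lid of the HSP60 chamber and its neighbour at the heat shock element printed above, had 619.8, 937, 979 and 755 TPM in T1 to T4, against 575, 705, 887 and 999 TPM in N1 to N4. N1 was the lowest library for both genes, and the fold changes were −0.19 ± 0.22 for Hspd1 and 0.06 ± 0.21 for Hspe1. Hspa9, the HSP70 of the mitochondrial matrix, lay between 159 and 205 TPM in trogocytic and between 168 and 241 TPM in non-trogocytic co-cultures. Hspd1 and Hspe1 lie on opposite strands and overlap, and 26.9% of the stretches of Hspd1 occur in other genes, mainly the pseudogene Hspd1-ps3.

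The subunits of the TRiC chaperonin, which folds actin and tubulin, were abundant in every library. Cct5 had 703, 971, 1102 and 867 TPM in T1 to T4, against 617, 1098, 912 and 1119 TPM in N1 to N4. Cct2 had 439, 494, 469.6 and 416 TPM in T1 to T4, against 418, 455, 409 and 422 TPM in N1 to N4. Cct2 had the narrowest spread of the 39 genes (within-group SD 0.09 on the log2 scale) and a fold change of 0.09 ± 0.14 (−0.21 to 0.40). Cct3 lay between 137 and 184 TPM in trogocytic and between 90.0 and 229 TPM in non-trogocytic co-cultures.

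Of the 4 genes with a mean of at least 1000 TPM, Canx and Hsp90b1 encode ER chaperones. Canx (ENSMUSG00000020368.15, chromosome 11, 50293961 to 50325673), the membrane-bound lectin calnexin that retains unfolded glycoproteins, had 3143, 2331, 2810.5 and 2272 TPM in T1 to T4, against 2586, 1532, 2387 and 2099 TPM in N1 to N4. Its means were 2639 ± 414 TPM in trogocytic and 2151 ± 458 TPM in non-trogocytic co-cultures (SD, n = 4 each), a fold change of 0.31 ± 0.18 (−0.10 to 0.72) with a limma unadjusted p of 0.1241. Calr, the soluble paralogue calreticulin, lay far lower, between 51.6 and 127 TPM in trogocytic and between 66.2 and 167 TPM in non-trogocytic co-cultures. The ratio of Canx to Calr was 24.8, 29.2, 54.5 and 29.7 in T1 to T4, against 39.1, 9.16, 35.9 and 21.9 in N1 to N4. This was 1 of 7 ratios compared, and its exact two-sided permutation p was 0.457, adjusted p 0.7, where 4 against 4 libraries allow no p below 0.0286. The other ratios had adjusted p-values of 0.7 to 0.943 in the same exact test.

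Hsp90b1 (GRP94), the HSP90 of the ER, had 879, 1064, 1413 and 845 TPM in T1 to T4, against 1106, 671, 1104 and 1042 TPM in N1 to N4. Hspa5 (BiP, ENSMUSG00000026864.13, chromosome 2, 34771970 to 34777547), the ER HSP70 that also holds the stress sensors inactive, had 751, 717, 829.9 and 849 TPM in T1 to T4, against 657, 1108, 960.5 and 779 TPM in N1 to N4. N2 was the highest library for Hspa5 and the lowest for Hsp90b1, and both genes carry the ER stress response element printed above. Hsp90b1 overlaps 1810014B01Rik, at 19.3 to 62.7 TPM, on the opposite strand. Their fold changes were −0.13 ± 0.18 for Hspa5 (−0.52 to 0.26) and 0.10 ± 0.22 for Hsp90b1 (−0.38 to 0.58). Over the 7 genes with that element, mean levels ran from 55.7 to 2395 TPM. Of their fold changes 5 of 7 were above 0, as were 5796 of all 11433 tested genes, and the interval of each of the 7 included 0.

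Several less abundant ER genes had the smallest p-values of the 43, and none reached an unadjusted p of 0.05. Dnajb9 (ERdj4, ENSMUSG00000014905.4, chromosome 12, 44205559 to 44210326), a BiP co-chaperone induced through XBP1, had 41.1, 33.8, 23.7 and 16.1 TPM in T1 to T4, against 101, 34.5, 57.4 and 27.3 TPM in N1 to N4. N1 alone was above 100 TPM, the means were 28.7 ± 11.0 TPM in trogocytic and 55.1 ± 33.2 TPM in non-trogocytic co-cultures (SD, n = 4 each), and the fold change was −0.82 ± 0.44 (−1.79 to 0.15, limma unadjusted p = 0.08995). P4hb, the protein disulfide isomerase PDI, had 100.4, 143, 122 and 117 TPM in T1 to T4, against 136, 193, 140.1 and 148 TPM in N1 to N4. Only T2 exceeded the lowest non-trogocytic libraries, and the fold change was −0.35 ± 0.20 (−0.78 to 0.09, limma unadjusted p = 0.1088). Fkbp11, an ER prolyl isomerase of secretory cells, had 16.4, 79.0, 30.5 and 33.9 TPM in T1 to T4, against 32.0, 89.8, 55.9 and 85.7 TPM in N1 to N4. T2 lay with the high non-trogocytic libraries, and the fold change was −0.82 ± 0.47 (−1.87 to 0.23, limma unadjusted p = 0.1144).

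Hyou1, the ER HSP110 that exchanges nucleotide on BiP, had 0, 2.52, 0 and 1.27 TPM in T1 to T4, against 4.68, 1.38, 1.90 and 1.57 TPM in N1 to N4. It was listed at 0 in 2 trogocytic libraries and rested on at most about 97.3 read pairs. Dnajc3 (p58IPK), a BiP co-chaperone and inhibitor of PERK, had 69.8, 80.0, 41.0 and 60.9 TPM in T1 to T4, against 53.8, 44.2, 45.7 and 50.3 TPM in N1 to N4. T3 was below every non-trogocytic library and the other 3 trogocytic libraries above all of them, with a fold change of 0.33 ± 0.26 (−0.23 to 0.90, limma unadjusted p = 0.2218). Sdf2l1, which works with BiP cofactors, had 99.0, 94.8, 48.8 and 64.3 TPM in T1 to T4, against 68.8, 119, 55.8 and 81.8 TPM in N1 to N4. Creld2, a secreted disulfide isomerase-like protein induced by ER stress, had 100.2, 138, 109 and 96.9 TPM in T1 to T4, against 61.0, 110.5, 95.5 and 137 TPM in N1 to N4. The remaining ER genes, the disulfide isomerases Pdia3, Pdia4 and Pdia6 and the secreted factor Manf, lay between 16.2 and 762 TPM over all libraries, with fold changes from −0.53 to 0.24. Of the 15 ER genes, all were tested, 6 had fold changes above 0 and 9 below, and their median was −0.08.

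The sensors and transcription factors of the unfolded protein response each averaged below 50 TPM. Xbp1 (ENSMUSG00000020484.18, chromosome 11, 5520659 to 5525893), whose messenger RNA is spliced by IRE1, had 49.2, 23.7, 16.6 and 44.4 TPM in T1 to T4, against 31.3, 133, 23.5 and 61.9 TPM in N1 to N4. N2 stood at 133 TPM, and the means were 33.5 ± 15.8 TPM in trogocytic and 62.6 ± 50.1 TPM in non-trogocytic co-cultures (SD, n = 4 each; fold change −0.69 ± 0.54, limma unadjusted p = 0.2297). Gene-level values do not separate spliced from unspliced Xbp1. Ern1, encoding IRE1 alpha, had 1.57, 0, 0 and 0.150 TPM in T1 to T4, against 0.0675, 0.633, 1.31 and 0 TPM in N1 to N4, and did not reach the filter. Atf4, the effector of the PERK branch and of amino acid shortage, had 20.6, 17.3, 33.7 and 19.2 TPM in T1 to T4, against 12.5, 28.8, 14.8 and 18.4 TPM in N1 to N4. Ddit3 (CHOP), the pro-apoptotic factor downstream of ATF4, had 35.4, 34.7, 12.7 and 22.8 TPM in T1 to T4, against 39.2, 15.4, 18.6 and 13.1 TPM in N1 to N4. Ddit3 overlaps Mars on the opposite strand, which averaged 10.3 TPM. Atf6 lay between 1.58 and 7.64 TPM over all libraries, and of the 4 tested genes of this group 2 had fold changes above 0 and 2 below.

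Genes of ER-associated degradation, the ubiquitin ligase adaptor Sel1l, the membrane scaffold Herpud1 and the mannosidase-like Edem1, lay between 2.31 and 105 TPM over all libraries, with 1 fold change above 0 and 2 below. Of the ATF4 targets, Asns, the asparagine synthetase, had 161, 186, 139.7 and 203 TPM in T1 to T4, against 66.9, 295, 160.1 and 259.8 TPM in N1 to N4. The lowest and the highest library were both non-trogocytic, and the fold change was 0.01 ± 0.40. Trib3, a pseudokinase induced by CHOP, had 0.351, 0, 0.144 and 0.228 TPM in T1 to T4, against 0, 2.58, 0 and 0 TPM in N1 to N4, and did not reach the filter.

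Other genes of the same pathways, 115 in 7 lists, gave 102 tested genes. limma called 0 of them at an adjusted p below 0.05 and 5 at an unadjusted p below 0.05, 2 higher and 3 lower in trogocytic co-cultures. Over all tested genes, 2.07% were higher and 2.52% lower at that threshold. Each of the 102 had an adjusted p of 0.9998. Bag1, an HSP70 nucleotide exchange factor, had 57.3, 70.1, 53.0 and 45.7 TPM in T1 to T4, against 81.7, 84.8, 85.4 and 74.7 TPM in N1 to N4. All 4 trogocytic libraries lay below all 4 non-trogocytic ones, as for 1.3% of all tested genes (1.37% did so in the other direction), and its fold change was −0.54 ± 0.21 (limma unadjusted p = 0.02905). Cryab, a small heat shock protein, averaged 85.6 ± 21.7 TPM in trogocytic and 52.2 ± 21.7 TPM in non-trogocytic co-cultures (SD, n = 4 each; fold change 0.74 ± 0.32, limma unadjusted p = 0.04172). The most abundant of that list were the HSP90 co-chaperone Ptges3 (p23), with a fold change of 0.15, and the HSP70-interacting St13 (HIP), with 0.06. Over the list, 20 of 24 genes were tested, 1 higher and 1 lower at the unadjusted threshold.

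Among other ER folding factors, 17 of 18 genes were tested, 0 higher and 1 lower at the unadjusted threshold. That gene, Uggt1, the glucosyltransferase that senses misfolded glycoproteins, had 2.21, 2.48, 2.19 and 0.850 TPM in T1 to T4, against 3.62, 5.52, 3.93 and 5.13 TPM in N1 to N4. Its groups did not overlap, as for 1.3% of all tested genes in that direction, and its fold change was −0.95 ± 0.42 (limma unadjusted p = 0.04833). Ppib (cyclophilin B), the most abundant of the list, averaged 487 ± 99.0 TPM in trogocytic and 617 ± 94.8 TPM in non-trogocytic co-cultures (SD, n = 4 each; fold change −0.35), and Tmx1 had a fold change of 0.03. Of other ATF4 and amino acid response genes, 20 of 23 were tested, 1 higher and 1 lower. Nupr1, a stress-induced chromatin protein, had 568, 505, 658 and 702 TPM in T1 to T4, against 296, 401, 526 and 556 TPM in N1 to N4 (fold change 0.48 ± 0.22, limma unadjusted p = 0.04827). Ddit4 (REDD1), an inhibitor of mTORC1, had 0, 0.494, 0.593 and 2.21 TPM in T1 to T4, against 2.92, 5.82, 1.56 and 2.17 TPM in N1 to N4 (limma unadjusted p = 0.0339). Nars, the asparaginyl-tRNA synthetase and also abundant, had a fold change of 0.08.

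In the other 4 lists 0 genes passed the unadjusted threshold. They were mitochondrial chaperones and proteases (7 of 8 tested, with Trap1 at −0.77, Clpx at −0.43, Grpel1 at −0.04 and Clpp at 0.32), TRiC and prefoldin subunits (11 of 11 tested, 9 fold changes above 0, with Cct4 at 0.37, Pfdn5 at 0.19, Tcp1 at 0.11 and Pfdn6 at 0.04), ER-associated degradation (15 of 16 tested, with Derl1 at −0.56, Edem2 at −0.84, Selenos at 0.10 and Derl2 at 0.17) and regulators of the stress responses (12 of 15 tested, with Nfe2l1 at −0.97, Crebzf at 0.90, Eif2s1 at 0.25 and Creb3 at −0.13).

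Single libraries stood out within the non-trogocytic group. N2 was the highest library for 14 of the 39 tested genes (35.9%), where it was the highest for 21.8% of all tested genes. These were Bag3, Hspa9, Cct3, Hspa5, Calr, Pdia3, Pdia6, P4hb, Sdf2l1, Fkbp11, Xbp1, Herpud1, Sel1l and Asns, 7 of them from the ER folding group. The same library was the lowest for Hsp90aa1, Hsp90b1 and Canx. N1 was the lowest library for 12 of the 39 (30.8%, against 20.2% of all tested genes), among them Hspa8, Hsp90ab1, Hspd1, Hspe1, Cct5 and Hspa5, and the highest for Hyou1, Dnajb9, Ddit3 and Edem1. N3 was the highest for 0 of the 39 and for 7.39% of all tested genes.

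**Figure D3:**
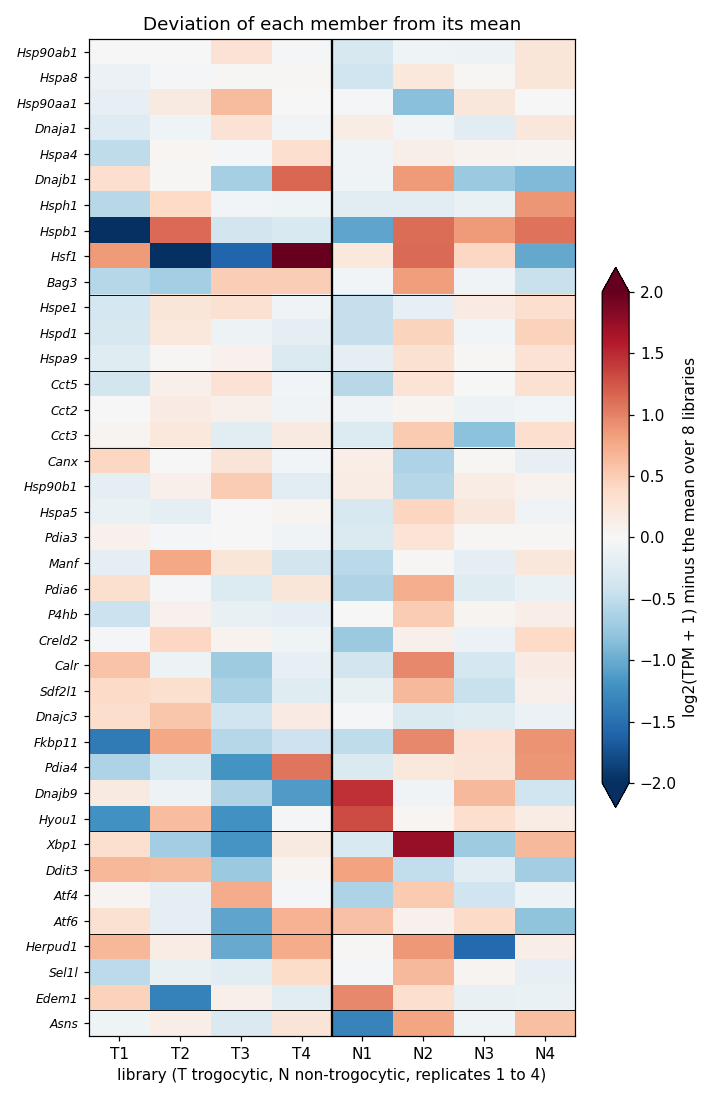
Each tested gene's log2(TPM + 1) in every library minus its mean over the 8 libraries, with trogocytic libraries T1 to T4 left of the line and non-trogocytic libraries N1 to N4 right of it; colours saturate at 2 in either direction. N2 holds the highest value of 14 of the 39 genes and N1 the lowest of 12, and the groups overlap for each of the 39.

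Other measures moved with these libraries. N2 had the highest summed level of 14 colon epithelium markers (9813 TPM, against 3466 to 6921 TPM in the other non-trogocytic and 5665 to 7451 TPM in the trogocytic libraries), and N1 the lowest of all 8. N1 had the highest summed level of 6 pan-leukocyte markers (5025 TPM, against 841 to 2216 TPM in the other non-trogocytic and 1296 to 3723 TPM in the trogocytic libraries) and of 14 macrophage and monocyte markers. The macrophage sum was 2972 to 9917 TPM in trogocytic and 5652 to 24730 TPM in non-trogocytic co-cultures. By limma, 13 of 13 tested macrophage and monocyte markers had fold changes below 0 (median −0.80), against 49.3% of all tested genes. At an unadjusted p below 0.05, 5 of the 13 were lower, against 2.52% of all tested genes. Groups did not overlap for 2 of the 14 listed, Fcgr1 and the untested Csf1r, both lower, as for 1.3% of all tested genes. For T cell markers, 10 of 10 had fold changes above 0 (median 1.07). Of these, 1 was higher at an unadjusted p below 0.05, against 2.07% of all tested genes. None of the tested markers of these 2 lists passed the adjusted threshold. Fold changes were above 0 for 8 of 13 tested colon epithelium, 4 of 4 B cell, 4 of 4 erythroid, 5 of 6 neutrophil and 10 of 12 mitochondrially encoded genes. Of 9 fibroblast and endothelium markers, 3 did not overlap, as for 1.3% of all tested genes in that direction. These were Col1a1, Col1a2 and Col3a1, listed at 0 in T1 to T4 and above 0 in N1 to N4. They reached at most 7.40 TPM and were not tested. T cell markers summed to 382 to 1452 TPM in trogocytic and 108 to 962 TPM in non-trogocytic co-cultures, and B cell markers to 661 to 2674 TPM in trogocytic and 379.7 to 2198 TPM in non-trogocytic co-cultures. Markers of the labelled epithelial cells and splenocytes were thus present in all 8 libraries, with Cdx1 listed at 0 throughout. Plasma cell markers were listed because such secretory cells are rich in Xbp1 and Fkbp11. Of 12, 10 were above 0 in at least 1 library while Tnfrsf17 and Derl3 were listed at 0. Their sum was 431 to 1882 TPM in trogocytic and 413 to 2089 TPM in non-trogocytic co-cultures. Most of it in each library was Igkc, at 290 to 1565 TPM over all libraries. Jchain and Ighm averaged 88.7 and 83.4 TPM, whereas Prdm1 and Irf4 averaged 1.90 and 0.337 TPM. The sum thus rests mainly on Igkc and was not taken as a level of plasma cells. By limma, 6 of 8 tested plasma cell markers had fold changes below 0 and 2 above (median −0.59). Only Ighg3 had an unadjusted p below 0.05. It was listed at 0 in T1 to T4 and at 6.09 TPM or above in N1 to N4. Its fold change was −3.69 (limma unadjusted p = 5.369e-05, adjusted p = 0.0877), which did not pass the adjusted threshold. The 2285 tested genes with the highest GC content, from 53.9% up, lay 0.52 above their mean over libraries in N2 (median, log2 scale), where in the other 7 libraries they lay between −0.22 and 0.15. Among the chaperone genes, N2 was the highest library for 7 of the 16 tested at 50% GC or above and for 7 of the 23 below. The part of cell mixture in the fold changes of the chaperone genes was not tested, nor was that of cell mixture and GC content in the pattern of N1 and N2. With the leukocyte gene Ptprc as a covariate, 0 of the 39 genes passed the adjusted threshold and only Dnajb9 the unadjusted one. Ptprc had a fold change of 0.43, while the medians of macrophage and T cell markers were −0.80 and 1.07. That fit was therefore not a test of cell mixture.

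Abundance and base composition went together within the 43 genes. Of the 23 genes with a GC content below 50% in the longest annotated transcript, 13 averaged at least 100 TPM and 0 were listed at 0 in any library. Of the 20 genes at 50% or above, 5 averaged at least 100 TPM and 6 were listed at 0 in at least 1 library, namely Hspa1a, Hspb1, Hsf1, Hyou1, Ern1 and Trib3. Spearman's rho between GC content and mean TPM was −0.49 over the 43 genes and −0.16 over 11424 tested genes with a transcript, given as a description because genes of one library share its preparation. Of the tested genes among the 43, 3 of 16 at 50% GC or above and 0 of 23 below were listed at 0 in at least 1 library, against 16.3% and 13.1% of all tested genes in the same classes. The part of GC content in the low values of the inducible genes was not tested.

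**Figure D4:**
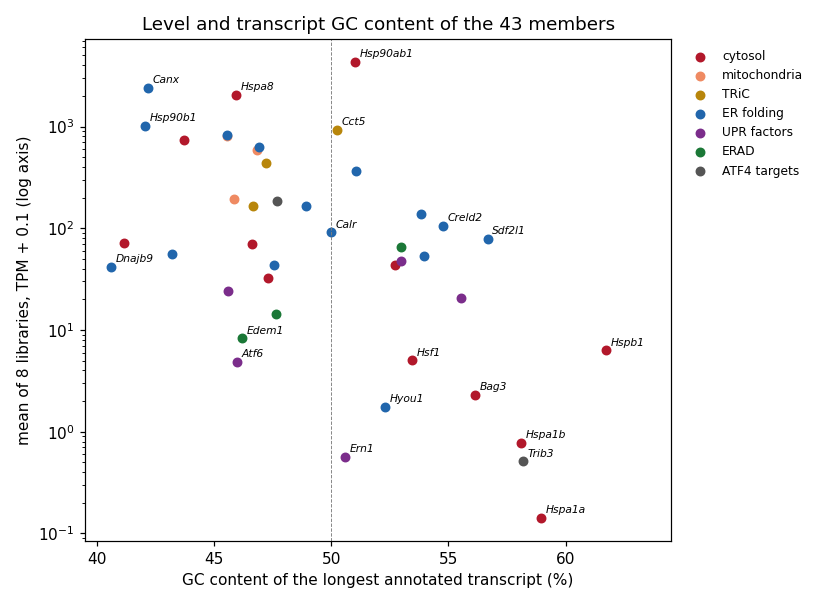
Mean level over the 8 libraries (TPM + 0.1, log axis) against the GC content of the longest annotated transcript for each of the 43 genes, coloured by role; the dashed line marks 50% GC. Of the 4 genes above 1000 TPM, Canx, Hsp90b1 and Hspa8 lie left of the line and Hsp90ab1, the most abundant, right of it; Hspa1a, Hspa1b and Trib3 lie right of it below 1 TPM.

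Pairs of genes related by function or position were compared across the 8 libraries on the log2(TPM + 1) scale, with exact permutation p-values adjusted over 10 pairs. None of the 10 passed. The highest correlation was that of the neighbours Hspd1 and Hspe1, with Pearson's r of 0.58 (exact permutation p = 0.133, adjusted p = 0.622) and Spearman's rho of 0.69 (exact permutation p = 0.0694, adjusted p = 0.499). Without N2 and N4, the libraries farthest from the median of Hspd1, r was 0.87 (exact permutation p = 0.0167, adjusted p = 0.167). Hspa5 and Hsp90b1 had r = −0.49 and, without N1 and N2, 0.18. Atf4 and its target Asns had r = 0.47 and, without T3 and N2, 0.78. The paralogues Hsp90aa1 and Hsp90ab1 had r = 0.46 and, without T3 and N2, −0.01. The other pairs had r of −0.10 for Hspa1a and Hspa1b, −0.04 for Hspa8 and Dnajb1, 0.39 for Cct2 and Cct5, 0.31 for Sdf2l1 and Creld2, 0.32 for Xbp1 and Fkbp11 and −0.26 for Ddit3 and Trib3, and over all 10 pairs the adjusted exact permutation p-values ran from 0.622 to 0.921 for r and from 0.499 to 0.963 for rho.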

How the data were processed

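Each library had 1 table of gene abundances with TPM, FPKM and coverage, made by the authors with StringTie 1.3.3 after alignment with HISAT2 to GRCm38 (mm10), per the submitters' processing notes, which also name DESeq version 2. Which annotation release and strand setting were used is not given in the sources used here; 49121 gene IDs match GENCODE M21 with the same version, start and end, among them 35 of the 43 genes; GC content and shared stretches of all 43 come from M21 transcripts matched by ID without version. Per the labels' protocols, libraries were made from polyadenylated RNA with a low-input kit and read as 100 bp pairs. The deposited TPM values were the measurement, the deposited FPKM values an alternative, and the deposited coverage served only to estimate aligned bases. Since TPM are not counts, no count model was used.

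Rows were summed per gene ID. log2(TPM + 1) was fitted over all 8 libraries with limma 3.58.1 in R 4.3.3, the prior variance following the mean, for genes at 1 TPM or more in at least 4 libraries, two-sided, with Benjamini-Hochberg adjustment over all tested genes. The code was tested on simulated data. Copies were searched as 100-base stretches of the longest transcript. Values are given for every library for the 8 genes of smallest p, the 8 most abundant, both genes of each pair, and genes listed at 0 or not reaching the filter. Each pathway list gave its 2 genes of smallest p and its 2 most abundant. Genes and lists were chosen with earlier results of these data known. Alternatives were another unit, pseudocount, filter and scaling, no trend, a replicate block, a Ptprc covariate, libraries left out, and a GC correction chosen after seeing the data.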

Additional observations from a re-analysis of the deposited data

Results flagged for a closer look

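In groups of 4 libraries, a library was singled out where its gap to the nearest other library exceeded Dixon's 95% critical value relative to the group's range. This was so in 7 of 86 groups examined, and chance flags about 1 in 20 groups of normally distributed values. That rate does not hold for genes listed at 0. Where all other libraries of a group are at 0, as for Trib3 and Hspa1a below, the flag is fixed in advance. Among abundant genes, Hsp90ab1 stood at 5286 TPM in trogocytic replicate 3, where the other trogocytic libraries had 4225 to 4325 TPM. Hsp90b1 stood at 671 TPM in non-trogocytic replicate 2, where the other non-trogocytic libraries had 1042 to 1106 TPM. Hsph1 stood at 57.6 TPM in non-trogocytic replicate 4, where the others of its group had 26.1 to 28.0 TPM. Among low genes, Hyou1 stood at 4.68 TPM in non-trogocytic replicate 1 (others 1.38 to 1.90 TPM), Ern1 at 1.57 TPM in trogocytic replicate 1 (others 0 to 0.150 TPM), Trib3 at 2.58 TPM in non-trogocytic replicate 2 (others listed at 0) and Hspa1a at 0.0379 TPM in non-trogocytic replicate 3 (others listed at 0).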

How the results depend on the processing

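The count of chaperone and stress genes called stayed at 0 under every alternative, as did that of the other pathway genes; the smallest adjusted p of a chaperone gene was 0.5309, with Ptprc as a covariate. The median log2 fold change of the chaperone genes ranged from −0.15 to 0.03. The count over all tested genes, 6, was 2 at pseudocount 0.01, 1 when low genes were kept, 1 when the trend of variance with mean was dropped, 0 without the first libraries of both groups, and 0 to 3 when each library was left out in turn (0 without T1, T2, T3 or N3; 1 without T4; 2 without N2; 3 without N1 or N4). The cause was not tested. The count of chaperone genes with an unadjusted p below 0.05, 0, was 1 with Ptprc as a covariate (Dnajb9) and 0 to 2 when each library was left out in turn. Up to 7 of the 39 fold changes changed sign in any alternative (without N2), each with a size of at most 0.37 with all libraries. With a pseudocount of 0.01 the fold changes of genes listed at 0 grew, to −3.97 for Hyou1, −2.59 for Hspb1 and −2.12 for Hsf1.

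Libraries of the 2 groups with the same number deviated together with correlations of 0.24, 0.01, 0.06 and −0.09, and only those of number 1 matched their own number best, so the numbers were not taken to pair them. With the replicate number as a block, 0 genes were called in all and 3 chaperone genes had an unadjusted p below 0.05 (Canx, Dnajb9 and Fkbp11, smallest adjusted p 0.8685). With median-of-ratios scaling added to the block, the counts were 0 and 2, and with a GC correction added, chosen after seeing the data, 1 and 1. Depth limits the genes with few read pairs in a library, such as Hspa1a and Hspa1b.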

Other observations

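Non-trogocytic replicate 3 alone held transcripts of 6 hepatocyte markers, which summed to 148 TPM there, with Apoa1 at 56.0 TPM and Alb at 36.5 TPM, and were listed at 0 in the other 7 libraries. This library was the highest for 0 of the 39 tested chaperone genes and for 7.39% of all tested genes. The count of the 39 past the adjusted threshold was 0 both with and without this library, so it cannot show the library's part. Without it, the median log2 fold change of the TRiC subunits was −0.02, against 0.09 with all libraries. The part of the hepatocyte transcripts was not tested.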
